A study of Mus musculus with 4 samples.

Results

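CXCL10-high interferon macrophages were human macrophages that carried many transcripts of CXCL10, a chemokine that interferons induce and that draws T and NK cells through the receptor CXCR3. They were picked from human CD45+ cells of MDA-MB-231 tumors by a fixed rule on unique molecular identifiers (UMIs, each standing for 1 captured transcript). A cell had to hold at least 10 CXCL10 UMIs and at least 5 UMIs summed over CD68, MSR1, CD163, C1QA, C1QB and C1QC. It was also limited to at most 3 UMIs of the hypoxia genes SLC2A1, HILPDA and ADM, at most 3 of MT1G and MT1H, at most 2 of TOP2A and MKI67, at most 1 of CD3D, CD3G and TRAC, and at most 2 of KRT18 and KRT19. The rule kept 523 cells of 16327 cells that passed quality filters, or 3.20%, and 523 of the 5448 macrophages that met every condition other than the one on CXCL10. The other 4925 of these macrophages are called CXCL10-low below, and 3936 of them held no CXCL10 UMI at all.

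The tumors grew from MDA-MB-231 cells, a human triple-negative breast cancer line, injected into the mammary fat pad of MISTRG mice. These mice carry human genes for the cytokines M-CSF, GM-CSF and IL-3 and were engrafted as irradiated newborns with human fetal liver CD34+ cells, so the leukocytes studied were human and the rest of the host was murine. Cell suspensions were tagged with 1 hashtag antibody per mouse, and live human CD45+ cells were then sorted and loaded as 2 droplet reactions. All 14 mice carried the same tumor line for 31 days: 7 were untreated, and 7 received the small-molecule drug maraviroc in the drinking water for 10 days from day 21. Reaction 1 held untreated mice 1 to 4 and maraviroc mice 1 to 3, and reaction 2 held untreated mice 5 to 7 and maraviroc mice 4 to 7. The treatment of a mouse was read from its hashtag name, and the sources used here did not give how many CD34+ donors were used.

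Interferons reach a macrophage through cell surface receptors that activate JAK kinases and STAT factors. Type I interferons (IFN-alpha and IFN-beta) act mainly through a complex that holds STAT2 and IRF9 and induce antiviral genes such as the IFIT, MX and OAS families. IFN-gamma, made by T and NK cells, acts in large part through IRF1 and induces guanylate-binding proteins, IDO1 and antigen presentation genes. CXCL9 is best known as an IFN-gamma target, whereas CXCL10 responds to both kinds of interferon. Macrophages of this kind are known from many human tumors, where their chemokines are linked to T cell recruitment.

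The 2 reactions differed in depth. Reaction 1 held 29120 barcodes with 133089612 gene UMIs and a median of 2764 UMIs per barcode, against 13582 barcodes, 175447534 UMIs and a median of 10204.5 in reaction 2. The 523 cells were split into 192 of reaction 1 and 331 of reaction 2. CXCL10-high cells were deeper than their CXCL10-low neighbors, with medians of 8861.5 against 5872.5 UMIs in reaction 1 and 15368 against 12880 in reaction 2. Depth thus moved with membership under a rule that used a fixed number of UMIs, its part in the differences was not tested as a whole, and values from thinned cells and from cells of 5000 to 20000 UMIs, a window in which depths can still differ, are given below. The 2 reactions shared 136 barcodes, of which 4 belonged to CXCL10-high cells. HTODemux, a doublet caller that uses hashtags, named 397 of the 523 cells singlets, 115 doublets (22.0%) and 11 negative, and the doublet share among CXCL10-low macrophages was 19.4%.

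CXCL10 levels of these cells were set by the rule and are given as a description. The median was 31 UMIs in reaction 1 and 27 in reaction 2, reaching 427 and 408. At least 1 CXCL10 UMI was found in 6.71% and 5.53% of T and NK cells (median depths 6068 and 7296 UMIs) and in 19.4% and 20.8% of CXCL10-low macrophages. The threshold cut a continuum, with 42 macrophages at 8 or 9 UMIs and 58 at 10 or 11. The 523 cells held 50.1% of all CXCL10 UMIs of the kept cells. Another 40.3% lay in 410 cells with at least 10 CXCL10 UMIs that failed another condition of the rule, and 4.80% in the CXCL10-low macrophages.

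The cells made up 10.0% ± 5.73 of the macrophages of a mouse (SD, n = 14 mice). In untreated mice the share ran from 2.70% through a median of 7.02% to 18.4%, and in maraviroc mice from 5.31% through 10.2% to 22.4%. The groups overlapped over most of their range. The highest share belonged to maraviroc mouse 6 (104 cells, 95% exact binomial interval 18.7 to 26.4%), followed by untreated mouse 1 (42 cells, 13.6 to 24.1%), and the lowest to untreated mouse 2 (10 cells, 1.30 to 4.91%). These intervals cover counting error only. The mean was 8.87% ± 6.02 in untreated and 11.2% ± 5.65 in maraviroc mice (SD, n = 7 each), a difference of 2.31 percentage points that was smaller than the spread between mice (exact permutation over all 3432 regroupings of the mice, two-sided p = 0.474). Without maraviroc mouse 6 the difference was much smaller, and without untreated mouse 1 it was larger, with values given at the end. Within reactions the difference was −1.93 points in reaction 1 (exact permutation p = 0.8) and 5.44 points in reaction 2 (exact permutation p = 0.286). The gap of 7.37 points between the reactions did not pass a permutation test of the interaction (exact p = 0.24). As a share of all kept cells the means were 2.71% ± 1.34 and 3.56% ± 1.77 (exact permutation p = 0.370).

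**Figure D1:**
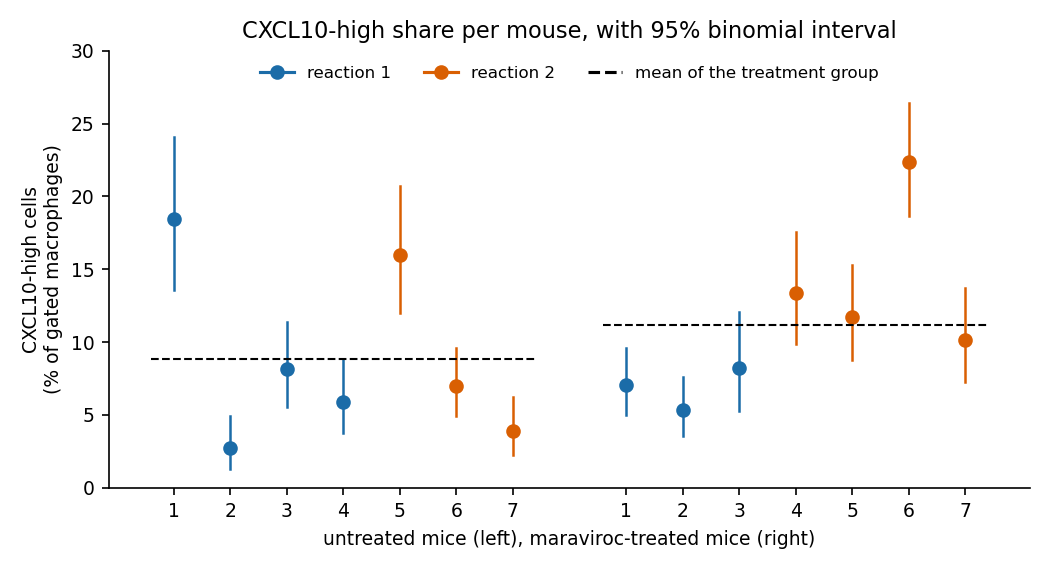
Share of gated macrophages (y axis, percent) that held at least 10 CXCL10 UMIs in each of the 14 mice (x axis, by treatment), with the 95% exact binomial interval as a bar, the reaction as color and the group mean as a dashed line. The untreated mice span 2.70 to 18.4% and the maraviroc mice 5.31 to 22.4%, so the groups overlap.

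Levels were compared within each mouse between its CXCL10-high and CXCL10-low macrophages, as counts per 1000000 gene UMIs (CPM) of the summed cells and as the log2 ratio of CPM + 1. The log2 ratio understates the change of low genes. A gene was called when its mean log2 ratio over the 14 mice was at least 1 in size and its sign was the same in all 14 mice. This comparison shares its cells with the rule, so it is a description with no test. Of 8741 genes that reached 10 CPM in either class, 81 were called higher (0.927%, CXCL10 included) and 39 lower (0.446%), with a median log2 ratio of −0.14 over all genes. Judged on the CXCL10-low cells alone, 8561 of these genes reached 10 CPM, and 75 of those were called higher. No matching count is given for the lower calls, some of which reached 10 CPM only in the CXCL10-low cells. The count of lower genes also depended more on the settings than that of higher genes, with values given at the end. The 4 other genes used to mark these cells (CXCL9, CXCL11, CCL8 and IFIT1), which had been picked with results of these data known, were called higher, and none of 15 macrophage identity genes outside the rule was called in either direction.

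The other CXCR3 ligands had the largest differences of the listed genes, with both measured members called higher. CXCL11 ran from 38.5 through a median of 204 to 1283 CPM over the 14 mice in CXCL10-high cells and from 1.40 through 4.12 to 12 CPM in CXCL10-low cells. CXCL11 reached 10 CPM on average only in the CXCL10-high cells. The 2 ranges did not overlap, and the mean log2 ratio was 5.36 ± 1.81 (SD, n = 14 mice). CXCL9 ran from 125 through 376 to 1575 CPM against 4.78 through 42.2 to 159 CPM. It was higher in every mouse (log2 ratio 3.38 ± 1.30, SD), although untreated mouse 1 alone had a CXCL10-low level of 159 CPM, above the CXCL10-high level of 125 CPM in untreated mouse 2. The receptor CXCR3 itself was close to absent from the CXCL10-high cells (6 UMIs in all, mean 1.29 CPM) and stood at 35 to 82.1 CPM in the T and NK cells of the same mice.

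Among the 15 other measured chemokines 2 were called higher and none lower, with a median log2 ratio of 0.22. CCL8, a monocyte attractant, had a median of 904 CPM (321 to 2011) in CXCL10-high cells and of 105 CPM (38.2 to 229) in CXCL10-low cells, with no overlap between the classes (log2 ratio 3.14 ± 0.87, SD, n = 14). CCL4, an inflammatory chemokine, was at 1100 ± 521 against 495 ± 227 CPM (log2 ratio 1.15 ± 0.62). The related chemokines CCL3 (0.88, higher in 13 of 14 mice) and CCL5 (0.30), were not called. CCL2, the main ligand of CCR2, reached a mean ratio of 1.0 but was higher in only 12 of 14 mice. The neutrophil attractants CXCL8 (803 against 1228 CPM, log2 ratio −0.64) and CXCL5 (40.8 against 138 CPM, log2 ratio −2.14) were each higher in only 1 of 14 mice.

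None of the 5 measured chemokine receptors was called. CCR1, a receptor of inflammatory chemokines, was at 163 against 136 CPM (log2 ratio 0.26). CCR2 (−0.56), the main receptor of classical monocytes, CX3CR1 (−0.70) and CXCR4 (−0.81) were lower on average without being called.

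Antiviral interferon-stimulated genes, the longest list, had the most calls by number. Of 35 measured, 19 were called higher, beside 0.927% of all genes, and none lower, with a median log2 ratio of 1.04. IFIT1, which binds foreign RNA, ran from 116 through 584 to 1186 CPM in CXCL10-high cells against 42.5 through 58.9 to 114 CPM (log2 ratio 2.89 ± 0.90, SD, n = 14), so that the lowest CXCL10-high mouse lay just above the highest CXCL10-low mouse. RSAD2 (viperin, an inhibitor of viral replication) had a log2 ratio of 2.74 ± 0.78, IFIT2 of 2.77 and IFIT3 of 2.34. ISG15, a ubiquitin-like modifier, stood at 1464 to 5287 CPM (median 2772) against 580 to 1152 CPM (median 841), without overlap (log2 ratio 1.72 ± 0.65). MX1, a dynamin-like restriction factor, was at 955 against 314 CPM (1.55). Smaller mean ratios were found for IFI6 (0.76), IFITM3 (0.61), BST2 (0.59) and SIGLEC1 (0.50), and IFITM2 was at 0.10.

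Genes best known as IFN-gamma targets were called higher in 11 of 19 cases (10 of the 17 that reached 10 CPM in CXCL10-low cells) and lower in none, with a median log2 ratio of 1.09. GBP5, a guanylate-binding protein that promotes inflammasome assembly, ran from 45.5 through 189.5 to 297 CPM against 11.6 through 24.0 to 54.9 CPM (log2 ratio 2.76 ± 0.50, SD). It was higher in every mouse, and the classes overlapped only through the lowest CXCL10-high value. GBP1 had 417 to 1242 CPM (median 801) against 58.9 to 233 CPM (median 120; log2 ratio 2.61 ± 0.64), and GBP4 a ratio of 2.56. IDO1, which degrades tryptophan, was uneven between mice: its CXCL10-high level ran from 3.85 through 19.9 to 376 CPM, and its ratio of 2.43 ± 2.33 was above 0 in 12 of 14 mice, so it was not called. CIITA, the master regulator of MHC class II, was at 0.15.

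None of the 7 interferon genes in the files passed the filter on low values. IFNB1 was found in 2 of 523 CXCL10-high cells (0.382%, 95% exact binomial interval 0.0463 to 1.37%), with 32 and 18 UMIs, and in 7 of 4925 CXCL10-low cells with 10 UMIs in all. IFNA2 was found in 1 cell with 4 UMIs. IFNA1, IFNL1, IFNL2 and IFNL3 were found in 0 of 523 cells, which allows a share of cells with a UMI of up to 0.574% by a limit of 3 counts and up to 0.703% by the exact binomial interval. IFNL1 was found in 43 of 4161 T and NK cells (1.03%), with 1 UMI each. IFNG was found in 6 of 523 CXCL10-high cells (1.15%), in 78 of 4925 CXCL10-low cells (1.58%) and in 1046 of 4161 T and NK cells (25.1%).

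Of 14 receptor and signalling genes, 4 were called higher. They included the kinase JAK2 (279 against 122 CPM, log2 ratio 1.17) and the feedback inhibitors USP18 (1.97) and SOCS1 (1.69). The receptor subunits IFNAR1 (79.7 against 86.0 CPM, log2 ratio −0.14), IFNAR2 (−0.18) and IFNGR2 (−0.03) were close to the median of all genes, and IFNGR1 was lower in all 14 mice by a mean log2 ratio of −0.47. Among 9 interferon regulatory factors, IRF1 was called higher (244 against 110 CPM, log2 ratio 1.18 ± 0.54), IRF7 was at 0.78 and IRF8 at −0.06. Of 12 sensors of foreign nucleic acid, 3 were called higher: ZBP1 (2.07, at 10 CPM only in the CXCL10-high cells), DDX58, which encodes RIG-I (355 against 87.2 CPM, log2 ratio 1.80), and IFIH1, which encodes MDA5 (1.65). The adaptors MAVS (−0.10) and TMEM173, which encodes STING (0.10), were not.

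Immune regulators were called higher in 6 of 19 cases, or in 5 of the 18 that reached 10 CPM in CXCL10-low cells. TNFSF10 (TRAIL, a death ligand) ran from 243 through 603 to 1438 CPM against 52.9 through 99.6 to 144 CPM, without overlap (log2 ratio 2.55 ± 0.93, SD). CD274, which encodes PD-L1, ran from 24.3 through 49.3 to 94.7 CPM against 6.03 through 12.1 to 27.8 CPM and was higher in every mouse (log2 ratio 1.94 ± 0.82). IL27, a cytokine subunit that acts on T cells, was at 9.53 to 43.6 CPM (median 19.4) against 1.77 to 6.25 CPM (median 4.06). It passed the filter only through the CXCL10-high cells, and its log2 ratio of 1.98 fell below the call threshold, to 0.86, with thinned cells. At unequal depth it was found in 17.8% of CXCL10-high cells, 4.0% of CXCL10-low cells and 0.264% of T and NK cells. The remaining calls were IL15RA (1.98), which presents IL-15 to T and NK cells, the amino acid oxidase IL4I1 (1.29) and the costimulatory receptor CD40 (1.10). CD86 (−0.12) and IL10 (−0.17) were near the median of all genes, and IL12A and IL12B had no UMI in any CXCL10-high cell.

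In antigen presentation, TAP1, a subunit of the peptide transporter, was the 1 call among 15 MHC class I pathway genes (181 ± 39.6 against 66.8 ± 13.9 CPM, SD; log2 ratio 1.41 ± 0.36). The immunoproteasome subunit PSMB9 was at 0.95 and HLA-B and B2M at 0.29 and 0.30. No call was made among 11 MHC class II genes (median 0.21), with HLA-DRA at 4779 against 4164 CPM. MT2A, a metallothionein outside the rule, was called higher and ran from 469 through 669 to 1129 CPM against 99.2 through 260 to 481 CPM (1.5 ± 0.52), while its relative MT1X was at −0.05. Of the 5 measured metallothioneins outside the rule, 4 had mean ratios above 0 (median 0.73), and MT2A was the 1 called.

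**Figure D2:**
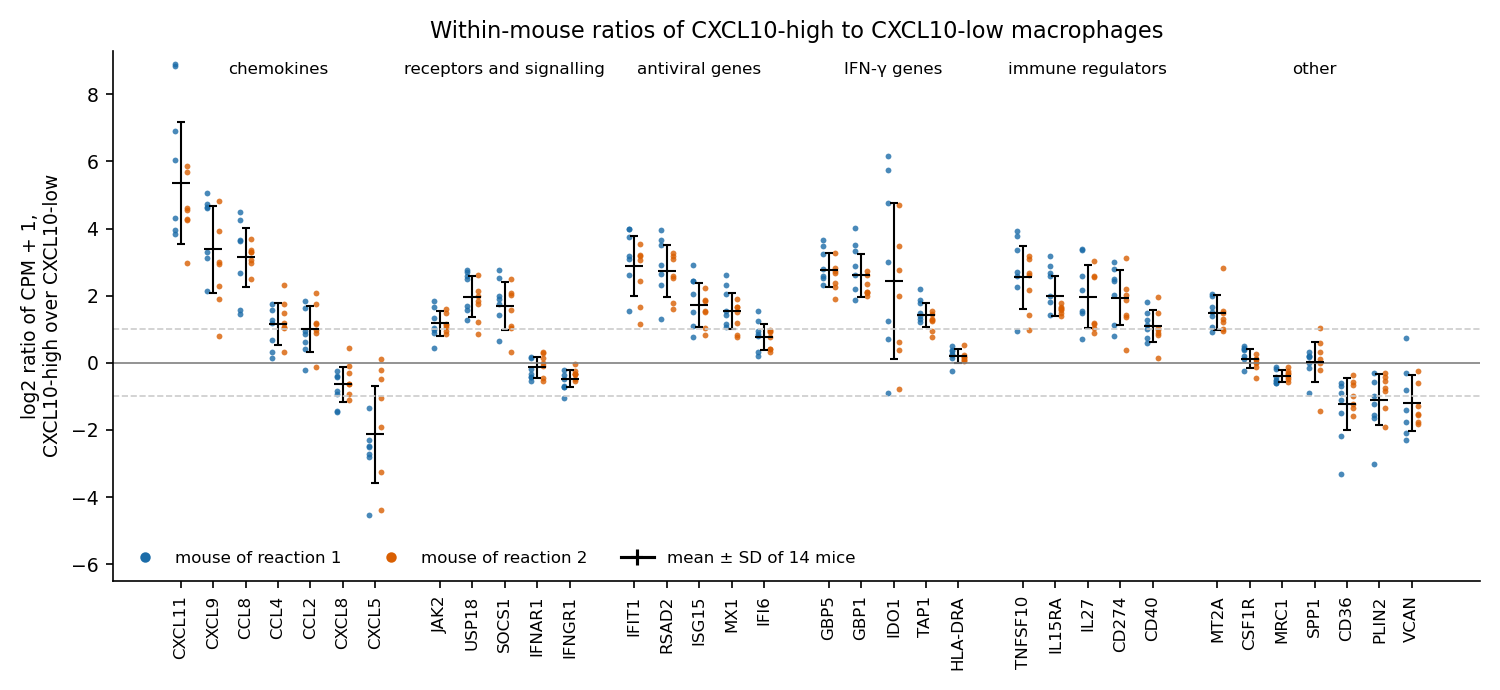
Log2 ratio of CPM + 1 in CXCL10-high over CXCL10-low macrophages (y axis) for genes grouped by role (x axis), with each colored dot 1 of 14 mice, the black mark the mean ± SD, and dashed lines at −1 and 1. Chemokines, antiviral genes and IFN-gamma targets lie mostly above 0, CXCL11 highest at a mean of 5.36, and CD36 and PLIN2 lie below 0 at −1.22 and −1.10.

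Macrophage identity genes outside the rule were called in neither direction (0 of 15, median log2 ratio 0.01). CSF1R, the receptor that macrophages need for survival, was at 295 against 266 CPM (0.13), and CD14, a receptor for bacterial lipopolysaccharide, at 0.07. The mannose receptor MRC1 was lower in all 14 mice by a smaller amount (1101 against 1431 CPM, log2 ratio −0.39), and LYVE1, a marker of perivascular macrophages, was higher in only 2 of 14 (−1.84).

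Of 15 lipid and iron handling genes, 2 were called lower and none higher, with a median of −0.49. CD36, a scavenger receptor for oxidized lipid, ran from 9.77 through 74.6 to 127 CPM in CXCL10-high cells against 105 through 155 to 272 CPM (log2 ratio −1.22 ± 0.77, SD, n = 14). PLIN2, which coats lipid droplets, ran from 55.8 through 175 to 387 CPM against 253 through 372 to 510 CPM (−1.10 ± 0.76). Both were lower in every mouse, with overlap between the classes as a whole. Over the settings recomputed, the ratio of CD36 ran from −1.56 to −0.966, at its smallest just short of the size needed for a call. GPNMB (−0.67), HMOX1 (−0.59) and TREM2 (−0.27) were not called, and SPP1, a secreted matrix protein of tumor macrophages, was at 9641 against 9557 CPM (0.02). The hypoxia gene NDRG1 was called lower (84.3 against 167 CPM, −1.05), in cells whose rule excluded other hypoxia genes from both classes.

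Inflammatory NF-kB targets showed no call among 12 genes (median 0.22). IL1B ran from 95.1 through 499 to 2495 CPM between mice, with a mean ratio of 0.06. IL6 had a mean ratio of 0.90 and was higher in 12 of 14 mice. All 6 measured monocyte markers had mean ratios below 0 without a call (median −0.56), among them S100A8 (715 against 1192 CPM, −0.80) and VCAN (736 against 1544 CPM, −1.20). None of 12 heat shock and immediate early genes was called, and their median of −0.14 was that of all genes.

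Markers of other cell types were summed in the same cells. T and NK cell markers stood at 45.5 to 1150 CPM (median 109; GNLY was the most abundant) against 101 to 641 CPM (median 209) in CXCL10-low cells, with none of the 4 measured called. The 1150 CPM was that of untreated mouse 2, which had only 10 CXCL10-high cells, and the next highest mouse was at 331 CPM. The rule limited T cell genes but no NK cell gene. Conventional dendritic cell markers summed to 90.4 to 262 CPM (median 122; CLEC10A led, and FCER1A had no UMI), plasmacytoid dendritic cell markers to 308 to 824 CPM (median 492, mostly TCF4) and B cell markers to 4.88 to 90.7 CPM (median 61.3, mostly BANK1). Mast cell markers reached at most 4.37 CPM, with KIT at 0, and carcinoma markers at most 15.4 CPM against 49.6 CPM in CXCL10-low cells. The carcinoma keratin KRT7 was called lower (1.28 against 14.1 CPM), with no UMI in the CXCL10-high cells of 8 mice. KRT7 reached 10 CPM on average only in the CXCL10-low cells. None of these lists stood higher as a group in CXCL10-high cells in all 14 mice, and their part in the differences was not tested.

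Beyond the fixed lists, the largest called differences upward were HESX1 (36 against 5.67 CPM, log2 ratio 2.33), a homeobox factor that reached 10 CPM only in the CXCL10-high cells, CD38 (48.8 against 11.6 CPM, 1.95), an enzyme that consumes NAD, NT5C3A (178 against 48.4 CPM, 1.73), a pyrimidine nucleotidase, NEXN (1.61) and CCL4L2 (1.53). CCL4L2 is nearly identical to CCL4, so reads may have been split between them. CALHM6 (610 against 212 CPM, 1.51), GCH1 (202 against 81.1 CPM, 1.27), which makes the cofactor tetrahydrobiopterin, and PML (92.9 against 38.8 CPM, 1.22), the scaffold of nuclear bodies, were also among the 15 largest, with KCNJ2 (1.39, also at 10 CPM only in the CXCL10-high cells), HERC6 (1.32), ASCL2 and NUB1 (1.29 each), SLFN12L (1.28), C5orf56 and DDX60L. The largest differences downward were in C9 (−2.80), EGLN3 (−2.58), a prolyl hydroxylase of the hypoxia response, COL24A1 (−2.55), PELI2 (−2.51), PDE8B (−2.37) and the adenosine receptor ADORA2B (−2.13). These are low genes, and between 4 and 8 mice had no UMI of EGLN3, PELI2, PDE8B, ADORA2B, COL24A1 or C9 in the CXCL10-high cells. PHLDA1 (−2.03), SLC28A3 (−2.12), KAZN (−1.88) and FRY (−1.82) completed the 10. Apart from FRY, each of these 10 genes reached 10 CPM on average only in the CXCL10-low cells.

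The classes were also compared with each cell reduced to 3000 UMIs. CXCL9 was then found in 34.2% of 161 CXCL10-high against 5.33% of 1894 CXCL10-low cells in reaction 1 and in 26.6% of 331 against 4.90% of 2428 cells in reaction 2. For CCL8 the shares were 51.6% against 12.4% and 49.8% against 12.8%, and for TNFSF10 63.4% against 22.0% and 55.6% against 20.7%. With thinned cells 54 genes were called higher in place of 81, and with only cells of 5000 to 20000 UMIs 76 were called higher and 72 lower. Restricting both classes to HTODemux singlets gave 76 genes called higher and 46 lower. At the same 3000 UMIs, at least 3 CXCL10 UMIs were found in 9.44% of 2055 macrophages of reaction 1 (95% exact interval 8.21 to 10.8%) and 10.8% of 2759 of reaction 2 (9.67 to 12%), after 617 and 17 shallower cells were left out.

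CCL8, IFIT1, GBP5, CXCL11 and CD274 stood higher in each successive band of CXCL10 UMIs, as summed over both reactions. CCL8 stood at 75.2 CPM in cells with no CXCL10 UMI, 206 at 1 to 9, 371 at 10 to 19, 805 at 20 to 49 and 1594 at 50 or more. IFIT1 passed through 52.4, 100, 200, 337 and 739 CPM over the same bands, and GBP5 through 22.6, 49.9, 131, 179 and 342 CPM. All 3 genes were thus above the CXCL10-free level already at 1 to 9 UMIs. CXCL11 was at 1.91 CPM with no CXCL10 and at 516 CPM in the top band, and CD274 went from 11.8 to 90.1 CPM. CD36 was at 182 CPM with no CXCL10, at 128 with 1 to 9 UMIs and between 86.8 and 102 CPM in the bands above, whereas SPP1 showed no order (7425 to 9292 CPM). The median depth of the cells rose over the bands as well, from 10000 to 16586 UMIs, and its part in these orders was not tested. Just inside the threshold (10 or 11 UMIs, 58 cells) and just outside it (8 or 9 UMIs, 42 cells), IFIT1 was at 330.1 CPM inside and 87.9 CPM outside in reaction 1, and at 195 and 169 CPM in reaction 2. CCL8 was at 267 inside and 869 CPM outside in reaction 1, and at 259 and 275 CPM in reaction 2. CXCL9 was at 98.3 and 51.7 CPM in reaction 1 and at 94.2 and 520 CPM in reaction 2, so that of the 3 genes CXCL9 changed order between the reactions.

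**Figure D3:**
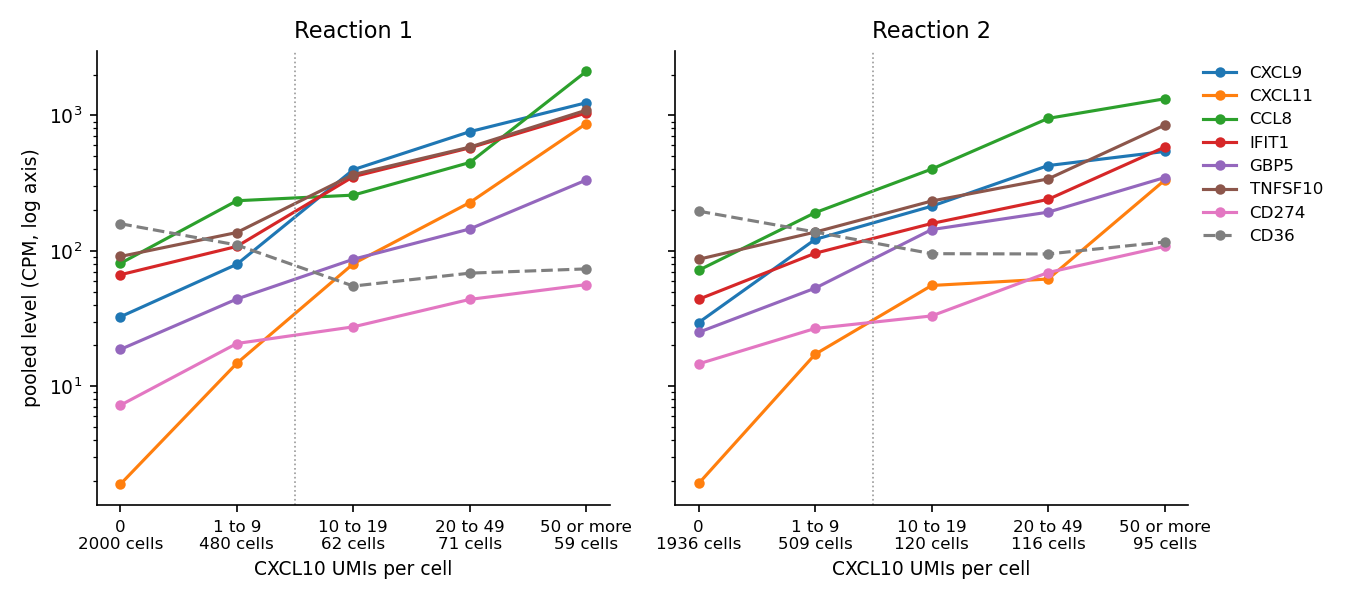
Pooled CPM (y axis, log scale) of 8 genes by the number of CXCL10 UMIs in the macrophage (x axis), with 1 panel per reaction and a dotted line at the threshold of 10 UMIs. The interferon-induced genes (solid) stand higher in the higher bands, CCL8 at 75.2 CPM in the lowest and 1594 CPM in the highest over both reactions, and CD36 (dashed) does not.

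Detection of CXCL9 and of IFIT1 was used to describe differences among the cells, although in sparse counts a transcript can be missed in a cell that holds it. In thinned CXCL10-high cells, CXCL9 without IFIT1 was found in 19.9% of cells in reaction 1 and 20.2% in reaction 2, IFIT1 without CXCL9 in 36.6% and 29.0%, both in 14.3% and 6.34%, and neither in 29.2% and 44.4%. Without thinning, both were found in 25.5% and 22.4% and neither in 17.7% and 18.7% of cells, CXCL9 alone in 14.1% and 18.1% and IFIT1 alone in 42.7% and 40.8%, so the classes moved with depth. CXCL9-only and IFIT1-only cells were both present in all 14 mice. The CXCL9-only cells outnumbered the IFIT1-only cells in 3 mice, namely untreated mouse 1 (16 against 6 of 38), maraviroc mouse 3 (4 against 3 of 20) and maraviroc mouse 6 (30 against 15 of 104), and in untreated mouse 2 they were 1 against 8 of 9.

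Levels of other genes in these 2 classes are given as CPM of pooled cells, with no test. The classes drew on different mice, since untreated mouse 1 gave 16 of 32 CXCL9-only but 6 of 59 IFIT1-only cells of reaction 1. Maraviroc mouse 6 gave 30 of 67 and 15 of 96 in reaction 2. Differences between mice thus enter the pooled values, and the intervals cover counting error only. GBP5 was at 388 CPM in CXCL9-only and 130 CPM in IFIT1-only cells of reaction 1 (95% Poisson intervals 329 to 455 and 105 to 159) and at 323 and 149 CPM in reaction 2. GBP1 (1229 against 689 and 863 against 537 CPM) and HLA-DRA (7638 against 3968 and 5415 against 4506 CPM) were on the same side. On the other side were IFIT2 (55.9 against 1233 and 55.4 against 880 CPM), RSAD2 (185 against 1000.6 and 125 against 701 CPM) and ISG15 (1838 against 5139 and 1049 against 3533 CPM). GBP5, GBP1 and HLA-DRA thus stood higher with CXCL9, and IFIT2, RSAD2 and ISG15 higher with IFIT1, in both reactions. IFN-gamma targets did not all keep one side: WARS was at 465 against 386 CPM in reaction 1 but at 376 against 437 CPM in reaction 2, and SOCS1 was at 91.4 against 32.8 and 46.4 against 64.3 CPM. IDO1 (79.1 against 75.5 CPM), SERPING1 (148 against 145 CPM) and ANKRD22 (221 against 216 CPM) were nearly level in reaction 2. Without those 2 mice, a comparison chosen after seeing the data, GBP5 was at 340.1 against 139 CPM in reaction 1 and 334 against 153 CPM in reaction 2, and IFIT2 was at 62.3 against 1351 and 55.4 against 951 CPM. Other genes changed side without them. SERPING1 was then lower in CXCL9-only cells in both reactions (108 against 143 and 123 against 144 CPM). IL27 was slightly higher there in reaction 1 (22.7 against 21.1 CPM), and WARS, CCL2 and SPP1 were higher there in both reactions. TNFSF10 (518 against 895 and 260 against 796 CPM) and CCL8 (917 against 1693 and 784 against 1116 CPM) were higher in IFIT1-only cells, but without untreated mouse 1 CCL8 was at 1598 against 1698 CPM in reaction 1. CXCL11 was highest in cells with both (1798 and 720 CPM) and lowest in cells with neither (9.69 and 41.15 CPM), and the median of CXCL10 itself was 55 and 66 UMIs in cells with both and 18 and 22 UMIs in cells with neither. The classes were cut from the same UMIs and share droplets, libraries and mice.

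**Figure D4:**
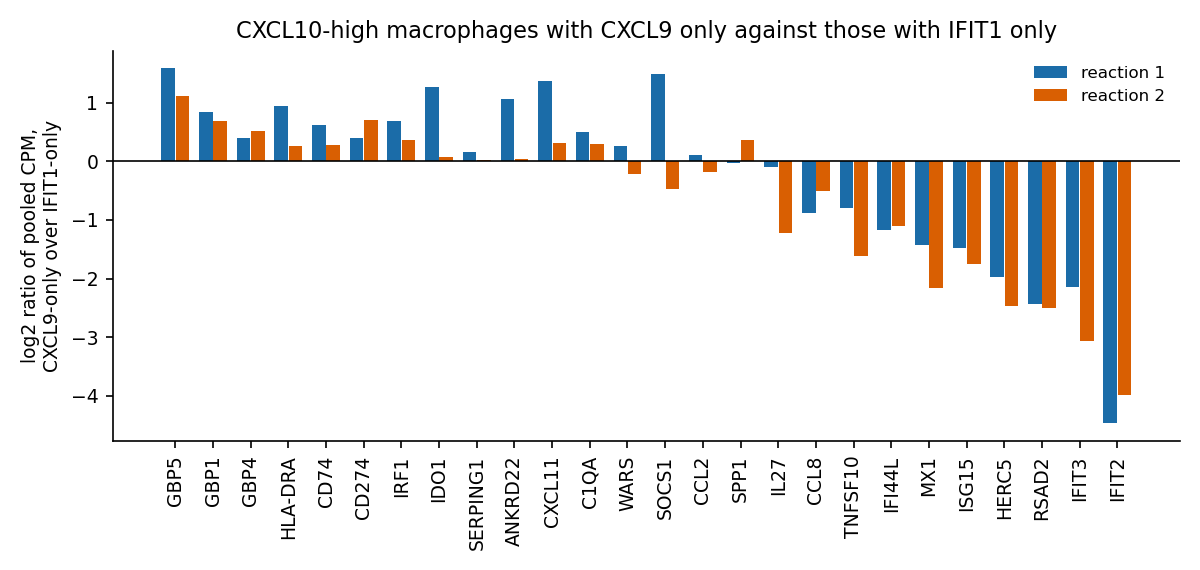
Log2 ratio of pooled CPM in CXCL9-only over IFIT1-only CXCL10-high cells (y axis) for 26 genes (x axis), with bars colored by reaction. In both reactions 12 genes lie above 0, among them GBP5, GBP1 and HLA-DRA, and 10 lie below 0, among them IFIT2, RSAD2 and ISG15, whereas WARS, SOCS1, CCL2 and SPP1 lie on opposite sides in the 2 reactions. All mice are included, and some genes, SERPING1 among them, changed side without untreated mouse 1 and maraviroc mouse 6.

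Over the 14 mice, the genes whose level in all gated macrophages ranked most like CXCL10 included GBP1 and SLAMF7 (Spearman rho 0.93 each), GBP4 (0.92), CXCL9 and CIR1 (0.91), DYNLT1 (0.89), TAP1 (0.88) and NCF1 and GMPR (0.87), among 8545 genes. These values describe the mice, which share libraries and depth by reaction. T and NK cells were on average more frequent in reaction 2 (28.9% against 21.2% of kept cells), as were CXCL10-high cells among macrophages (12.1% against 7.96%). The share of macrophages that were CXCL10-high had a Pearson r of 0.577 with the percentage of T and NK cells (permutation p = 0.0304, adjusted 0.0737 over 3 relations) and a Spearman rho of 0.741 (permutation p = 0.00339, adjusted 0.0102, n = 14). With mice permuted only within their reaction, a choice made after seeing the data, the p was 0.0508 for r and 0.00806 for rho (adjusted 0.0242). Within reactions r was 0.747 and 0.356 and rho 0.786 and 0.429, and without the 2 mice farthest from the median percentage it was 0.502. With IFNG CPM in T and NK cells, r was 0.382 (permutation p = 0.176) and rho 0.336 (permutation p = 0.238), with r of 0.604 and −0.0323 within reactions and 0.194 without the 2 farthest mice, so no relation was shown. The share also had an r of 0.534 with the median UMIs of the macrophages (permutation p = 0.0491, adjusted 0.0737) and a rho of 0.582 (permutation p = 0.0314, adjusted 0.0471). With mice permuted only within their reaction, the p of this relation with depth was 0.00662 for r and 0.0240 for rho (adjusted 0.0360), with r of 0.574 and 0.794 within reactions and 0.338 without the 2 farthest mice. A rule of 10 CXCL10 UMIs per 10000 gave r of 0.352 with T and NK cells and 0.0327 with depth.

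Whether maraviroc altered these cells was asked by comparing summed CXCL10-high cells between 7 maraviroc and 7 untreated mice, with the reaction as a term. No gene of 6002 passed an adjusted p of 0.05 in edgeR's quasi-likelihood test (lowest adjusted p 0.633), and none did in DESeq2. The count was 47 when all genes with at least 1 count were kept and 1 when mice needed at least 20 cells. At an unadjusted p under 0.05, edgeR gave 226 genes (3.77%), 110 of them higher (1.83%) and 116 lower (1.93%), and DESeq2 gave 205. The mice of a group are separate animals, with 10 to 104 CXCL10-high cells each.

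No interferon-induced gene passed the test. CXCL9 was at 141 to 1708 CPM in untreated and 174 to 1143 CPM in maraviroc mice (TMM-scaled; log2 fold change 0.25, SE 0.42), and the log2 fold change of CXCL11 was 0.15 (SE 0.55). CCL8 was at 0.26 (SE 0.31), IFIT1 at 0.17 (SE 0.42), GBP5 at −0.10 (SE 0.26) and CD274 at 0.35 (SE 0.26), and the groups overlapped for each. The sign for CXCL11, IFIT1 and GBP5 changed when single mice were left out, and that for CXCL9 changed without the reaction as a term. None of 35 antiviral genes reached an unadjusted p under 0.05 (20 above 0, median 0.03), nor did any of 18 IFN-gamma targets (5 above 0, median −0.07). Over all genes 3021 of 6002 were above 0, with a median of 0.00. In CXCL10-low macrophages 33 of the 35 antiviral genes were above 0 (median 0.15), against 5890 of 11524 genes, and 5 were higher at an unadjusted p under 0.05, beside 2.21% of all genes. In all gated macrophages 35 of 35 were above 0 (median 0.18), against 5952 of 11770 genes, and 6 were higher at an unadjusted p under 0.05, beside 2.16% of all genes. No antiviral gene passed the adjusted threshold in either. Genes induced together do not give independent signs, and CXCL10-low cells made up most of all gated macrophages. Summed over the list, antiviral genes were at 5522 to 9188 CPM in CXCL10-low cells of untreated mice. In those of maraviroc mice they were at 6766 to 10365 CPM, so the groups overlapped.

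**Figure D5:**
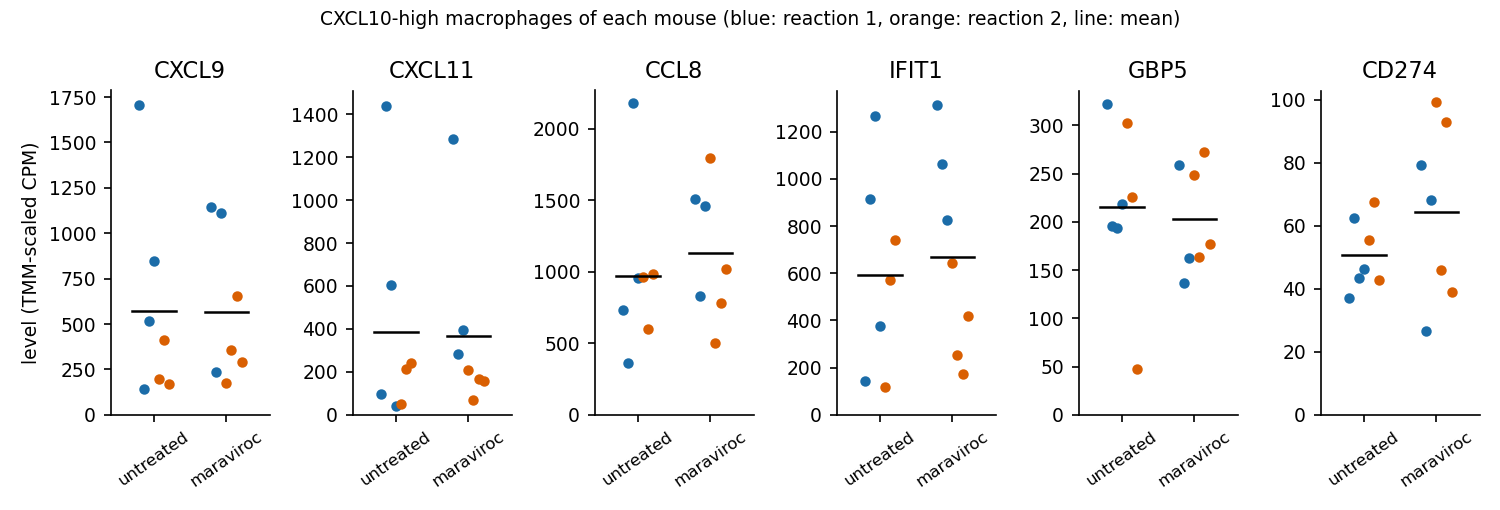
TMM-scaled CPM (y axis) of 6 genes in the CXCL10-high macrophages of each mouse by treatment (x axis), with points colored by reaction and lines at the group means. The groups overlap in all 6 panels, CXCL9 for example at 141 to 1708 CPM in untreated and 174 to 1143 CPM in maraviroc mice.

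The genes of lowest unadjusted p in that comparison were NAF1 (log2 fold change −1.83, SE 0.40), MTFR1 (1.02, SE 0.24), POLD3 (0.91, SE 0.21) and FDFT1 (0.97, SE 0.23), each with an adjusted p of 0.633 by edgeR. MTFR1, a mitochondrial protein, was at 26.9 to 36.7 CPM in maraviroc mice and 4.2 to 20.7 CPM in untreated mice, so its groups did not overlap. MTFR1 was picked by its p among 6002 genes, so this separation is no separate support. How many of all genes separated the groups is not given here. The others of the 10 were MITF, AC006230.1, MYO10, ERI1, DHX34 and BCAS2, all with adjusted p of 1.0. Of the listed genes, CXCL8 (−0.60, SE 0.18), VCAN (−0.91, SE 0.32), TNF (1.25, SE 0.53), HSPA1B (0.54, SE 0.18), B2M (0.19, SE 0.09), MT1X (−0.43, SE 0.19), IL3RA (−0.56, SE 0.24) and TLR8 (−0.52, SE 0.19) had unadjusted p under 0.05, all with overlapping groups and adjusted p of 1.0 by edgeR. Each was the only such gene of its list, for example CXCL8 among 14 other chemokines and VCAN among 6 monocyte markers. Over all genes 3.77% had such a p, so these genes are no result about the lists. VCAN, a matrix proteoglycan of monocytes, was at 296 to 1694 CPM in untreated and 267 to 941 CPM in maraviroc mice, the lowest untreated value being that of untreated mouse 1.

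The CXCL10-low macrophages of the same mice gave the same count, with 0 of 11524 genes past the adjusted threshold in edgeR and in DESeq2. At an unadjusted p under 0.05 edgeR gave 420 genes (3.64%; 2.21% higher and 1.43% lower) and DESeq2 330. CXCL11 was at 1.53 to 5.03 CPM in untreated and 1.42 to 11.8 CPM in maraviroc mice in these cells (log2 fold change 1.30, SE 0.36, adjusted p 1.0 by edgeR). In all gated macrophages together, edgeR and DESeq2 each gave 0 of 11770 genes past the adjusted threshold and 443 (3.76%; 2.16% higher and 1.61% lower) and 378 at an unadjusted p under 0.05. There CXCL10 was at 458 ± 316 CPM in untreated and 543 ± 152 CPM in maraviroc mice (SD, n = 7 each; log2 fold change 0.35, SE 0.35), a level in which more CXCL10-high cells and more CXCL10 per cell cannot be told apart.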

How the data were processed

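The authors deposited raw UMI counts of genes and hashtags for 2 droplet reactions, made with Cell Ranger 9.0.1 on GRCh38 (Seurat 5.1.0 is also in the submitters' notes). These counts of 36601 human genes were the only unit used; sample labels name the mouse as organism. Members and gene lists were chosen with earlier results of these data known.

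Kept cells had 601 to 6000 genes, under 12.5% mitochondrial UMIs and a top hashtag with at least 60% of hashtag UMIs, which set mouse and treatment; no further doublet removal was done. T and NK cells had at least 3 T or 5 NK marker UMIs and at most 1 macrophage UMI. Counts were summed per mouse and class (at least 10 cells). Ratios used CPM with a pseudocount of 1 and a minimum of 10 CPM in either class. Treatment was tested with edgeR 4.0.16 (quasi-likelihood, TMM, reaction as a term, Benjamini-Hochberg) and, as an alternative, DESeq2 1.42.0 on R 4.3.3, with Seurat 5.3.0 for HTODemux. Shares were tested with scipy 1.17.1. Exact binomial and Poisson 95% intervals cover counting error only. Scripts were tested on simulated data.

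Named genes were those of 26 lists (302 of 305 genes in the files), the 15 largest and 10 smallest called ratios, the 10 lowest unadjusted p per treatment comparison and the 10 genes most like CXCL10. Genes of the rule were given no test, apart from CXCL10 in all gated macrophages. Some genes of the lists are counted but are not reported here by name.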

Additional observations from a re-analysis of the deposited data

Results flagged for a closer look

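Single mice stood apart from the other 6 of their group in 7 of 52 sets of 7 values examined (25 genes and the share of cells, in each treatment group), where chance would set about 1 in 20 apart. Untreated mouse 2, which had only 10 CXCL10-high cells, was high for CXCL11 (1283 CPM, the nearest untreated mouse 558), IDO1 (376 CPM, nearest 101), IL1B (2495 CPM, nearest 840) and SPP1 (21908 CPM, nearest 10675). Untreated mouse 3 was high for CCL8 (2011 CPM, nearest 947). Maraviroc mouse 1 was high for CXCL11 (1158 CPM, nearest 366) and for TNFSF10 (1438 CPM, nearest 816).

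SULF2, an extracellular sulfatase of heparan sulfate, was the 1 gene of 6002 to pass edgeR's test of the interaction in CXCL10-high macrophages (log2 difference of the effects 2.93, adjusted p = 0.0264), and 281 genes had an unadjusted p under 0.05. No gene passed with HTODemux singlets, at a hashtag share of at least 80%, under any of the 3 other CXCL10 thresholds or without some single mice, 14 of 20 other settings in all. In reaction 1, SULF2 was at 109 to 157 CPM in the 4 untreated mice and at 10.5 to 41.4 CPM in the 3 maraviroc mice (log2 fold change −2.28), without overlap. In reaction 2 it was at 51.5 to 127 CPM in the 3 untreated mice and at 124 to 145 CPM in the 4 maraviroc mice (0.65), with overlap.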

How the results depend on the processing

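The count of genes higher in CXCL10-high cells (81) ranged from 54 with thinned cells to 99 in either reaction by itself, and from 77 to 87 with 1 mouse left out. The count of lower genes (39) was 64 with at least 20 CXCL10 UMIs, 72 with cells of 5000 to 20000 UMIs, 12 with a pseudocount of 10 CPM, 74 with genes of at least 1 CPM, 185 in reaction 1 and 69 in reaction 2, and 40 to 51 with 1 mouse left out. Of 567 recomputed log2 ratios of 21 genes, 565 moved by no more than the SD between mice. Many of these settings left out 1 mouse, which can move a mean over the mice only by a part of that SD. The count therefore says little about how firm the ratios are. IL27 was at 1.04 with a pseudocount of 10 CPM and at 0.86 with thinned cells. The difference in share was −1.93 points in reaction 1, and ranged from 0.440 (without maraviroc mouse 6) to 3.90 points (without untreated mouse 1). The count of genes changed with maraviroc (0) was 47 when all genes with at least 1 count were kept and 1 with at least 20 cells per mouse; it was 0 under 24 other settings, each mouse left out included.

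The log2 fold change of CXCL9 was −0.0511 without the reaction term and −0.0405 with at least 20 cells per mouse. That of CXCL11 was −0.00177 without the reaction term, −0.0463 in reaction 2 and −0.31 to 0.63 with 1 mouse left out. IFIT1 was at −0.32 in reaction 2 and −0.0336 to 0.42 with 1 mouse left out, and GBP5 at 0.058 with HTODemux singlets, 0.0833 in reaction 2 and −0.32 to 0.0693 with 1 mouse left out. Settings from here on were chosen after seeing the data. The correlation with T and NK cells was 0.457 at 20 CXCL10 UMIs and 0.352 at 10 per 10000. That with median UMIs was 0.511 with a higher minimum of genes per cell, 0.467 at 5 CXCL10 UMIs, 0.453 at 20 and 0.0327 at 10 per 10000. The single interaction call, SULF2, became 0 calls at a hashtag share of 80%, with HTODemux singlets, and at 5, 20 or 10 per 10000 CXCL10 UMIs, and was 0 to 1 with 1 mouse left out. The cause of these shifts was not tested.

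No paired analysis was possible because the mice of both treatments were separate animals and shared no replicate number in the labels. Depth limited low genes in particular, with as few as 10 CXCL10-high cells in untreated mouse 2, and treatment came only from hashtag names.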

Other observations

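Cells with at least 10 CXCL10 UMIs also lay outside the rule, and their levels are given as pooled CPM with no test. The 93 such cells with fewer than 5 macrophage UMIs held CXCL10 at 4104 CPM, against 3525 CPM in the CXCL10-high macrophages. C1QA, a complement subunit of macrophages, was at 23.4 against 1718 CPM, a difference set by the rule because C1QA belongs to the macrophage condition. The 93 cells had CCR7, a homing receptor of mature dendritic cells and T cells, at 216 against 5.87 CPM. LAMP3, a marker of mature dendritic cells, was at 180 against 15.2 CPM. IDO1 (410 against 55.7 CPM), CD274 (148 against 62.4 CPM), GBP5 (438 against 221 CPM) and CXCL9 (904 against 528 CPM) stood higher in these cells, and CCL8 (126 against 945 CPM) and IFIT1 (220.4 against 434 CPM) lower.

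The 163 cells that passed the macrophage condition and held more than 2 UMIs of TOP2A and MKI67, genes of dividing cells, had CCL8 at 935 CPM, CXCL9 at 412 CPM and IFIT1 at 283 CPM. The 151 cells with more than 3 UMIs of MT1G and MT1H had CCL8 at 1010 CPM, CXCL9 at 604 CPM and IFIT1 at 240.1 CPM. Median depths were 9603, 16487 and 16860 UMIs in the order given, against 13794 UMIs in the CXCL10-high macrophages.

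In the CXCL10-low macrophages 25 genes passed edgeR's test of the interaction between treatment and reaction (lowest adjusted p = 0.0374), and 1684 had an unadjusted p under 0.05. Of these, 20 had a negative log2 fold change in reaction 1 and a positive one in reaction 2, among them NFKBIA (−0.94 and 0.57), BIRC3 (−1.33 and 1.05), CXCL2 (−0.79 and 0.53) and CXCL3 (−0.94 and 0.68). The other 5, FGD6 (0.63 and −0.56), MGAT4A, USPL1, DGLUCY and MAP2K6, went the opposite way. In all gated macrophages 0 genes passed (lowest adjusted p 0.0576), with 1691 at an unadjusted p under 0.05, and DESeq2 was not run for the interaction. These genes were singled out after their values were seen.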
